A study of Mus musculus with 27 samples.

Results

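Glycine receptors and the transporters that set the chloride level of neurons were followed through retinal development with 8 genes: the receptor subunit genes Glra1, Glra2, Glra3, Glra4 and Glrb, the scaffold gene Gphn, and the cotransporter genes Slc12a2, encoding NKCC1, and Slc12a5, encoding KCC2. They were taken by gene symbol from a table of 38168 features, and all 8 were found. Gphn is listed 2 times, and its entry with the higher mean was used. All 8 passed the filter on low values (at least 1 cpm in at least 3 libraries), as did 31760 features in all. The libraries came from whole retinas of C57BL/6J mice, with no transgene, allele or treatment, at embryonic day 14 (E14, n = 3) and E17 (n = 3) and at postnatal day 1 (P1, n = 4), P6 (n = 3), P15 (n = 4), P28 (n = 4) and P60 (n = 6). According to the study's methods, a library stood for a pool of embryos or mice, except at P60. There, 2 samples were pools of 3 mice and 4 were single mice. The labels do not say which P60 libraries were pools. They give an n of 3 for every library, so that the number of animals behind a library is uncertain. By the same methods, embryo and P1 pools could hold both sexes, and later mice were males. The tissue holds all retinal cell types, so a level cannot be assigned to one of them. Values are cpm, the reads of a gene scaled to the size of its library.

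Glycine is a fast inhibitory transmitter, and in the retina it is released mainly by small-field amacrine cells. It opens pentameric chloride channels made of alpha subunits, which bind glycine, and a beta subunit, which ties the channel to gephyrin under the synapse. The direction of the current depends on the chloride gradient. NKCC1 loads chloride into the cell together with sodium and potassium, and KCC2 removes it together with potassium. Immature neurons are known for high internal chloride, so that glycine and GABA can depolarize them, and the later rise of KCC2 is known for making both transmitters hyperpolarizing.

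Reads counted to the listed features, recovered from the cpm, numbered 7076646 to 11330762 per library, with a median of 7968785. The study's methods give a larger number of reads collected per library. In these counts, 3 reads were worth 0.265 to 0.424 cpm, which is the level that a count of 0 allows. These limits cover counting error only. Marker genes followed the labeled tissue: the summed level of 4 rod genes was 11.7 to 20.4 cpm in embryonic libraries and 22680 to 27450 cpm at P60, that of 4 bipolar cell genes rose from 4.0 to 6.63 cpm in embryos to 1002 to 1040 cpm at P15, and 4 progenitor genes fell from 4306 to 4690 cpm at P1 to 132 to 178 cpm at P6. Genes of cells outside the neural retina also moved with age. Endothelial genes (3) summed to 5.40 to 8.69 cpm in embryos and to 75.7 to 98.1 cpm from P15 on, and 4 genes of the retinal pigment epithelium to 2.74 to 7.20 cpm and 16.9 to 54.1 cpm. Their part in the results was not tested. In bulk tissue, fewer cells of a type and less RNA per cell cannot be told apart.

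**Figure D1:**
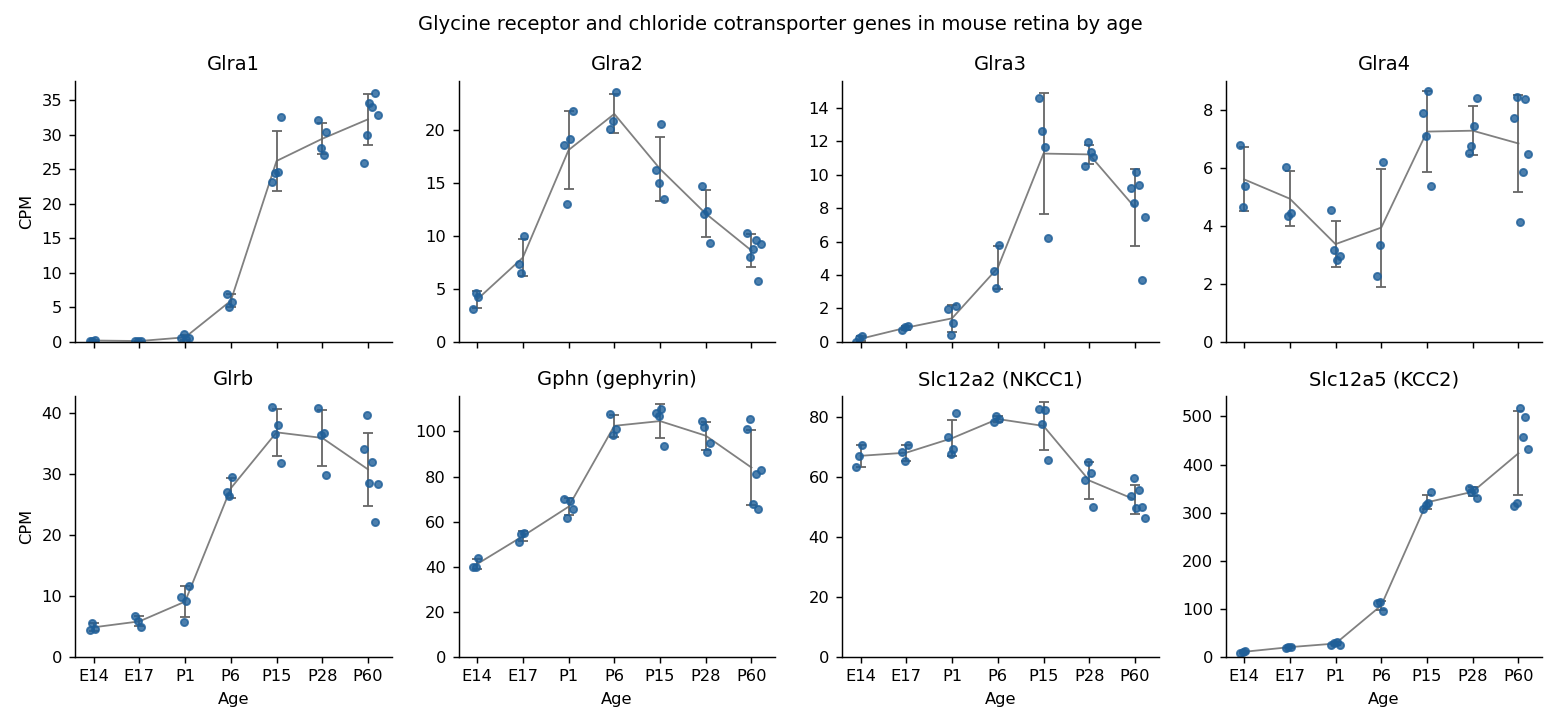
Levels (cpm, linear axes from 0) of the 8 genes in each library by age, with 1 panel per gene. Points are libraries, the line joins the means of each age and bars are SD. Slc12a5 climbs from a mean of 10.4 cpm at E14 to 423 cpm at P60, the means of Slc12a2 stay between 52.5 and 79.4 cpm, and Glra2 peaks at P6 with 21.5 cpm.

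Slc12a5, the gene of the chloride exporter KCC2, had the highest level of the 8 genes per length of exon from P15 on. It lies at chr2:164960802-164999731 on the plus strand (GRCm38). Its levels were 8.90, 9.39 and 12.8 cpm at E14, 17.8, 21.4 and 21.1 cpm at E17, and 25.4, 29.5, 30.8 and 24.6 cpm at P1. They reached 112, 113 and 95.6 cpm at P6, 307, 316, 320 and 342 cpm at P15, and 351, 344, 348 and 331 cpm at P28. At P60 the lowest, median and highest of 6 libraries were 315, 445 and 517 cpm. Every library from P6 on lay above every earlier one, and no P15 library overlapped with P6. P60 libraries fell apart, with replicates 1 and 2 at 315 and 321 cpm and the other 4 at 433 to 517 cpm. Whether replicates 1 and 2 are the P60 pools named in the methods is not stated.

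The RefSeq promoter table (GRCm38.p6) holds 2 starts of Slc12a5, and the deposited level sums over both. The windows are shown because they head the gene whose cpm rose most among the 8, and they run from 250 bases before to 50 bases after each start, 5′ to 3′ on the plus strand. The first spans chr2:164960596-164960895 and the second chr2:164967738-164968037. Capitals mark matches to the GC box GGGCGG on either strand.
Slc12a5 start 1: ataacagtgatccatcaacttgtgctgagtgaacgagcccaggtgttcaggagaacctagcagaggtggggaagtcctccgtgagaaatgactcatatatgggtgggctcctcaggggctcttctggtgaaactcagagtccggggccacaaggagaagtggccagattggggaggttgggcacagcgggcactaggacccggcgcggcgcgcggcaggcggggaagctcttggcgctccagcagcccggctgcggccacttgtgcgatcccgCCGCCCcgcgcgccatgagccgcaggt
Slc12a5 start 2: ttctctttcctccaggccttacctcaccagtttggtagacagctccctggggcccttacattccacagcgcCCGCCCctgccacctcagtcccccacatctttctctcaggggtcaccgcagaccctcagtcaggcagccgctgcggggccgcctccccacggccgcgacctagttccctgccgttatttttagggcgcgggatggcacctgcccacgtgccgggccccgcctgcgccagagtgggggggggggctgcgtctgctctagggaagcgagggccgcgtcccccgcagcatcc
Bases G and C made up 63.7% and 68.3% of these windows, against a median of 52.7% over 32851 promoters. Each window held 1 GC box, as did 35.7% of all promoters in at least 1 copy. Neither held the TATA box TATAAA (13.6% of all promoters) or the letters CAGCACC (7.14%) and GGACAG (22.2%), which are parts of the RE1 element that the repressor REST binds. These letters describe the windows only.

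In limma fits over all features, with Benjamini-Hochberg adjustment and log2 fold changes of cpm + 1, Slc12a5 changed by 0.90 (SE 0.14, adjusted p = 2.49e-05) from E14 to E17, 0.44 (SE 0.14, adjusted p = 0.0361) from E17 to P1, 1.92 (SE 0.14, adjusted p = 2.73e-13) from P1 to P6 and 1.58 (SE 0.14, adjusted p = 6.22e-11) from P6 to P15. Slc12a5 thus rose at these 4 steps, but the call for the step around birth, the smallest, was not firm. It was lost in edgeR on recovered reads (0.42, adjusted p = 0.11), with median-of-ratios scaling (0.41, adjusted p = 0.10) and on leaving out 1 library in 5 of 7 cases (each E17 library, P1 replicate 2 or P1 replicate 3), where its adjusted p was 0.06 to 0.21. Later steps were 0.10 (adjusted p = 0.824) to P28 and 0.27 (adjusted p = 0.104) to P60. The last passed without P60 replicate 1 (adjusted p = 0.016) or replicate 2 (adjusted p = 0.018), which are the low P60 libraries. As a share of its P60 mean, Slc12a5 stood at 2.45% at E14, 6.51% at P1, 25.2% at P6 and 75.9% at P15. The mature ages (P15, P28 and P60, 14 libraries) had a mean of 371 cpm and the embryonic ages (E14 and E17, 6 libraries) of 15.2 cpm, which is 24.4-fold (log2 fold change 4.54, SE 0.09, limma adjusted p = 2.86e-29).

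Slc12a2, the gene of the chloride loader NKCC1, moved far less. Its position is chr18:57878678-57946821 on the plus strand (GRCm38). Its levels were 63.5, 67.0 and 70.8 cpm at E14, 68.3, 65.5 and 70.7 cpm at E17, and 73.5, 67.8, 69.4 and 81.3 cpm at P1. They were 78.3, 80.4 and 79.6 cpm at P6, 82.6, 77.7, 82.5 and 65.6 cpm at P15, and 59.0, 65.0, 61.3 and 50.2 cpm at P28. At P60 they had a lowest value of 46.2, a median of 51.8 and a highest value of 59.7 cpm. All 6 P60 libraries lay below every library from E14 to P15, and they overlapped with P28. The step from P15 to P28 was the only one that passed, with a log2 fold change of -0.38 (SE 0.09, limma adjusted p = 0.0134), and it was lost without P15 replicate 1 (adjusted p = 0.056), P15 replicate 3 (0.065) or P28 replicate 4 (0.094). The steps up to P6 ranged from 0.02 to 0.12, with adjusted p of 0.348 to 0.958, and that to P15 was -0.05 (adjusted p = 0.752). Between its highest mean at P6, 79.4 ± 1.05 cpm (SD, n = 3), and P60, 52.5 ± 4.88 cpm (SD, n = 6), the log2 fold change was -0.59 (SE 0.09, limma adjusted p = 2.34e-06). That contrast was added after the values were seen. Mature against embryonic ages the log2 fold change was -0.13 (SE 0.06, adjusted p = 0.0643), and the mature range of 46.2 to 82.6 cpm enclosed the embryonic range. This contrast passed without P15 replicate 1, P28 replicate 2 or P60 replicate 2, with adjusted p of 0.05 (just under the threshold), 0.04 and 0.035. NKCC1 is also found outside neurons. From P15 to P28 the summed level of the pigment epithelium markers went from 35.7 to 54.1 cpm to 30.4 to 34.5 cpm. That of the endothelial markers went from 80.0 to 98.1 cpm to 75.7 to 81.5 cpm. The sum of the bipolar cell markers went from 1002 to 1040 cpm to 840 to 917 cpm. Other marker sums moved in both directions. That of the rod markers rose from 14980 to 15950 cpm to 21930 to 23280 cpm, and the median of the Mueller glia markers from 757 to 827 cpm. The sum of the horizontal cell markers fell from 64.74 to 83.25 cpm to 55.31 to 64.22 cpm. Ganglion cell markers fell from 457.9 to 597.1 cpm to 424.6 to 437.7 cpm. The part of these cells in the fall of Slc12a2 was not tested.

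The order of the 2 cotransporter genes turned over between P1 and P6. Within each library the ratio of Slc12a5 to Slc12a2 does not depend on how libraries are scaled. In cpm its mean was 0.154 at E14, 0.295 at E17, 0.382 at P1, 1.35 at P6, 4.22 at P15, 5.88 at P28 and 8.20 at P60. The libraries of P1 reached at most 0.443 and those of P6 at least 1.20, so the groups did not overlap. Reads also scale with transcript length, and the exons of Slc12a2 cover 10920 bases against 7447 for Slc12a5 (GENCODE M21). Per kb of exon, the ratio was 0.226 at E14, 0.433 at E17, 0.560 at P1, 1.97 at P6, 6.19 at P15, 8.62 at P28 and 12.0 at P60. The turn stayed between P1 and P6 also with the length of the longest coding transcript, where P1 libraries reached at most 0.479 and P6 libraries at least 1.30. On the scale of log2((cpm + 1)/(cpm + 1)), the embryonic mean was -2.16 (SD 0.51, n = 6) and the mature mean 2.58 (SD 0.48, n = 14), a difference of 4.74. All 14 mature libraries lay above all 6 embryonic ones (two-sided exact permutation test, p = 5.2e-05, the smallest it can give, and adjusted p = 5.2e-05 over 2 ratios). The fold between P1 and P6 came mostly from Slc12a5, which changed by 1.92 on the log2 scale while Slc12a2 changed by 0.12 (adjusted p = 0.348).

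**Figure D2:**
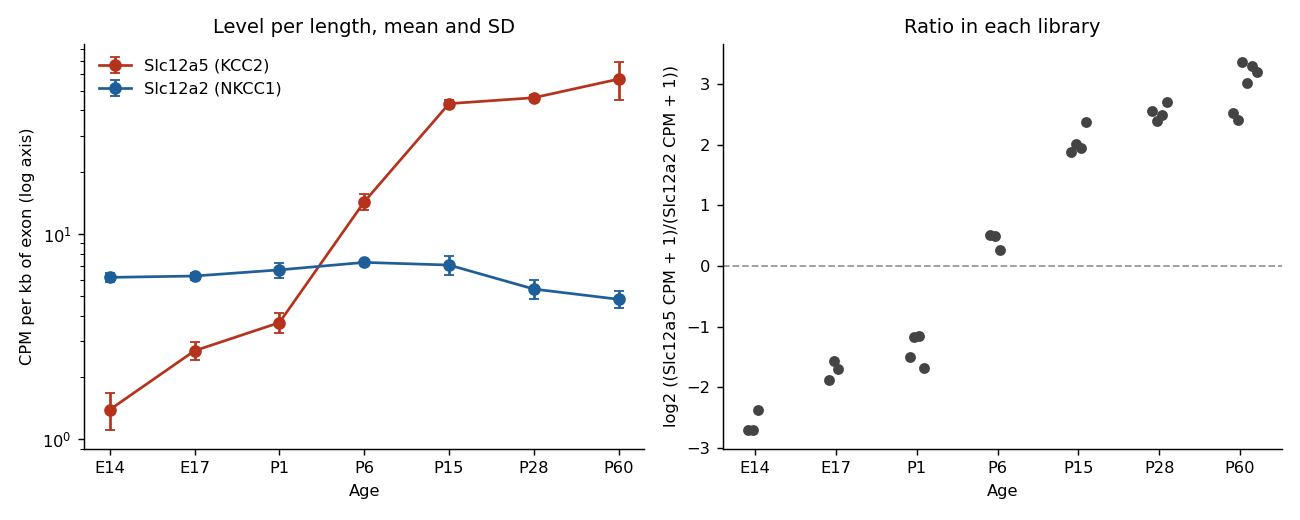
Left, mean level per kb of exon (cpm per kb, log axis) of Slc12a5 and Slc12a2 by age, with bars for SD over libraries. Right, log2 ratio of (cpm + 1) of Slc12a5 over Slc12a2 in each of the 27 libraries, with a dashed line at equal levels. The curves cross between P1 and P6, and no library at P1 or before lies above the dashed line in the right panel, while none from P6 on lies below it.

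Glra1, which encodes the alpha 1 subunit of the adult type of synaptic glycine receptor, was almost without reads before birth. On the minus strand of chr11:55514238-55608198, it spans 94.0 kb, and 141 of its exon bases lie opposite exons of an antisense gene, Gm12236. Whether the counting used the strand is not stated. Levels were 0.10, 0.105 and 0.316 cpm at E14 and 0.102, 0.0882 and 0.104 cpm at E17, none above 3 reads. They were 0.491, 1.13, 0.452 and 0.473 cpm at P1, 6.92, 5.08 and 5.79 cpm at P6, 23.2, 24.5, 24.6 and 32.6 cpm at P15, and 32.1, 28.1, 27.1 and 30.4 cpm at P28. At P60 the lowest, median and highest values were 26.0, 33.4 and 36.0 cpm. No library of P1, P6 or P15 overlapped with the age before it. Over pooled libraries, 8 embryonic and 3206 mature reads gave a ratio of 222 relative to all counted reads. Its exact 95% interval was 113 to 515, which covers counting error only. Glra1 rose by 2.09 on the log2 scale (SE 0.17, limma adjusted p = 4.11e-12) from P1 to P6 and by 1.97 (SE 0.17, adjusted p = 4.38e-11) from P6 to P15. The earlier rise of 0.56 from E17 to P1 (adjusted p = 0.0273) rested on few reads and was lost without any 1 of the E17 libraries or without P1 replicate 2 (adjusted p of 0.077 to 0.13). At such low levels the pseudocount of 1 cpm sets the size of a change. The step from E17 to P1 was 1.81 with a pseudocount of 0.1 (limma adjusted p = 1e-05) and 2.48 in edgeR on recovered reads (adjusted p = 0.0063). It did not pass in limma with median-of-ratios scaling or with the replicate number as a block (adjusted p = 0.057 in each). In edgeR the step from P1 to P6 was 3.24.

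Glra2, which encodes the alpha 2 subunit known from immature neurons, was highest at P6 and lower at P60. It covers chrX:165129017-165327393 on the minus strand. Its levels were 3.10, 4.64 and 4.21 cpm at E14, 7.36, 6.53 and 9.94 cpm at E17, 18.5, 13.0, 19.1 and 21.8 cpm at P1, and 20.1, 20.9 and 23.6 cpm at P6. They were 16.2, 15.01, 20.6 and 13.5 cpm at P15 and 14.7, 12.1, 12.3 and 9.30 cpm at P28, and at P60 the lowest, median and highest were 5.77, 8.99 and 10.2 cpm. E17 lay wholly above E14 and P1 wholly above E17, whereas P1 and P6 overlapped. It rose by 0.84 (SE 0.20, limma adjusted p = 0.00413) from E14 to E17, which was lost without E17 replicate 3 (adjusted p = 0.052), and by 1.09 (SE 0.19, adjusted p = 0.000121) from E17 to P1. No single step after P6 passed (log2 fold changes of -0.39, -0.40 and -0.45, adjusted p of 0.113, 0.27 and 0.0578). Over the whole interval from P6 to P60, a contrast added after the values were seen, Glra2 fell by 1.24 on the log2 scale (SE 0.17, adjusted p = 5.78e-07). The gene is X-linked, and Xist, transcribed from the inactive X of females, was at 112, 627 and 2.11 cpm at E14 and 404 to 595 cpm at E17. At P1 it was at 1093 cpm in replicate 3 and 1.26 to 1.59 cpm in the other 3 libraries, so signs of females were near 0 in 3 of 4 libraries there and in E14 replicate 3. The part of sex in the early levels of Glra2 was not tested.

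The promoter window of Glra2 is shown because its time course differs from that of Glra1 and Slc12a5. It covers chrX:165327344-165327643 and is written 5′ to 3′ on the minus strand, with matches to the GC box GGGCGG and the TATA box TATAAA, on either strand, in capitals.
Glra2: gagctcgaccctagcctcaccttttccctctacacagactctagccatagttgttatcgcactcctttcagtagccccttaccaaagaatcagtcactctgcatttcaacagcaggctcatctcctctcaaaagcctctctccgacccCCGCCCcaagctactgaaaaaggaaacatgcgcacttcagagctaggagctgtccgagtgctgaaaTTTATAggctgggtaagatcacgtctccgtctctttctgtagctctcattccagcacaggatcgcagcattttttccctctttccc
It held 50.3% G and C, below the median of all promoters, and it was the only 1 of the 7 windows of 6 of these genes that held the TATA box letters, which 13.6% of all promoters hold. The RefSeq windows of Glrb, Glra3, Gphn and both of Slc12a5 held a GC box too, and that of Glra4 did not. The RE1 letters GGACAG, held by 22.2% of all promoters, occurred on either strand in the windows of Glra2, Glrb, Glra3 and Glra4. They are left in lower case above. None of the 7 windows held the RE1 letters CAGCACC.

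Glra3, encoding the alpha 3 subunit, rose from P1 to P6 and from P6 to P15 and had a lower level per kb than Glra1, 1.22 against 10.9 cpm per kb at P15. Located at chr8:55940460-56130070 on the plus strand, it had 0, 0.211 and 0.316 cpm at E14, where 0 reads allow up to 0.300 cpm, and 0.716, 0.882 and 0.932 cpm at E17. They were 1.96, 0.378, 1.13 and 2.13 cpm at P1, 4.24, 3.25 and 5.79 cpm at P6, 14.6, 12.6, 11.7 and 6.19 cpm at P15 and 10.5, 11.9, 11.4 and 11.1 cpm at P28. At P60 the lowest, median and highest were 3.71, 8.74 and 10.2 cpm. P6 lay above P1 and P15 above P6 without overlap, and P15 replicate 4 and P60 replicate 5 were the low libraries of their ages. Glra3 rose by 1.22 (SE 0.28, limma adjusted p = 0.000605) from P1 to P6 and by 1.15 (SE 0.28, adjusted p = 0.00152) from P6 to P15. The mature mean of 9.87 cpm was 19.4-fold the embryonic mean of 0.509 cpm (log2 fold change 2.88, SE 0.18, adjusted p = 1.23e-15), and the log2 fold change was 4.39 with a pseudocount of 0.1 and 4.75 in edgeR on recovered reads. The change of 0.31 from E17 to P1 did not pass (adjusted p = 0.627).

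Glra4, the alpha 4 subunit gene, changed least of the alpha subunit genes between the embryonic and the mature ages. Its span is chrX:136757674-136780141 on the minus strand, and a transcript on the other strand, BC065397, lies within its span without sharing exon bases and had 9.32 to 21.2 cpm. Glra4 levels were 6.80, 4.64 and 5.37 cpm at E14, 6.03, 4.32 and 4.45 cpm at E17, 4.54, 3.15, 2.83 and 2.96 cpm at P1 and 2.26, 3.35 and 6.20 cpm at P6. They were 7.90, 7.11, 8.64 and 5.36 cpm at P15 and 6.53, 6.74, 7.44 and 8.42 cpm at P28, with a lowest, median and highest of 4.14, 7.11 and 8.45 cpm at P60. Every pair of neighboring ages overlapped. The step from P6 to P15 passed (log2 fold change 0.80, SE 0.23, limma adjusted p = 0.00712), but not without P6 replicate 1 (adjusted p = 0.10). Mature against embryonic ages it differed by 0.37 (SE 0.15, adjusted p = 0.025), which was lost without E14 replicate 2, E17 replicate 2 or E17 replicate 3 (adjusted p of 0.079, 0.066 and 0.06). In edgeR without E14 replicate 1 that difference was 0.62 (adjusted p = 0.0026).

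The make-up of the alpha subunit transcripts was thus compared per kb of exon, since these genes differ in length (2414 bases for Glra1, 3150 for Glra2, 9208 for Glra3 and 2010 for Glra4). Glra4 held 66.9% ± 8.74 (SD, n = 3) of the summed alpha level at E14, where that sum was 4.14 cpm per kb, and 21.6% ± 4.93 (SD, n = 4) at P1. Glra2 held 30.9% ± 8.04 (SD, n = 3) at E14, 72.9% ± 6.19 (SD, n = 4) at P1 and 58.5% ± 3.31 (SD, n = 3) at P6. Glra1 held 3.65% ± 2.62 (SD, n = 4) at P1, 21.2% ± 4.66 (SD, n = 3) at P6, 52.1% ± 8.24 (SD, n = 4) at P15 and 65.4% ± 5.16 (SD, n = 6) at P60, when Glra2 held 13.5% ± 2.83 (SD, n = 6). Glra3 did not exceed a mean of 5.91%. At E17 the shares of Glra2 (49.2%) and Glra4 (48.2%) differed by less than their spread. The leading gene was therefore Glra4 at E14, Glra2 at P1 and P6, and Glra1 from P15 on, and the same held with the length of the longest coding transcript. These shares are a description with no test.

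**Figure D3:**
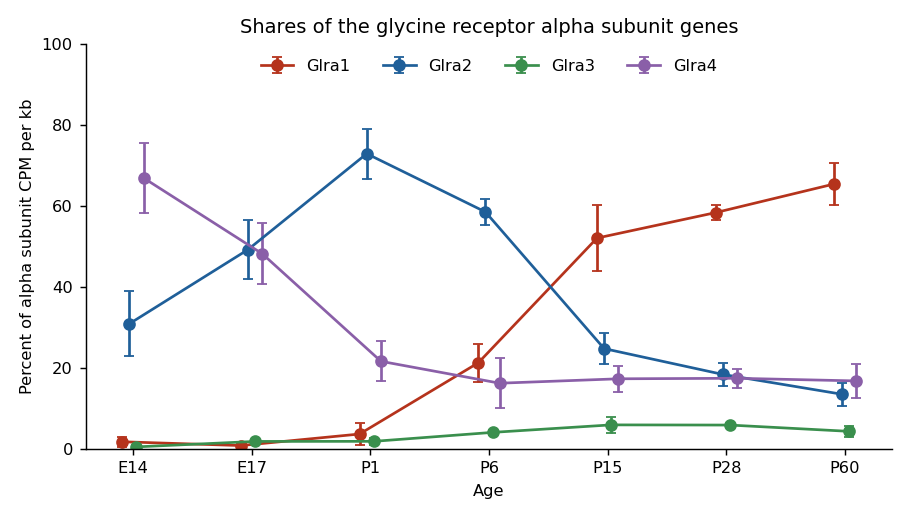
Share of each alpha subunit gene in the summed alpha level (percent of cpm per kb of exon) by age. Points are means over libraries and bars are SD. Glra2 leads at P1 with 72.9% and Glra1 at P60 with 65.4%, while Glra3 stays at or under a mean of 5.91%.

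The balance of Glra1 and Glra2 turned over after P6. The ratio of Glra1 to Glra2 in cpm averaged 0.0398 at P1, 0.278 at P6, 1.67 at P15, 2.496 at P28 and 3.93 at P60. It passed 1 between P6, where it was at most 0.345, and P15, where it was at least 1.20, and per kb it did so over the same interval (at most 0.450 and at least 1.56). On the scale of log2((cpm + 1)/(cpm + 1)), the mean went from -2.54 (SD 0.56, n = 6) in embryonic to 1.31 (SD 0.60, n = 14) in mature libraries, a difference of 3.85, with all 14 mature libraries above the embryonic ones (two-sided exact permutation test, p = 5.2e-05, adjusted p = 5.2e-05 over 2 ratios). The size of that difference depends on the pseudocount, and it was 6.03 with 0.1 in place of 1. In mature libraries Glra2 itself had a mean of 11.8 cpm, against 5.96 cpm in embryonic ones. Its log2 fold change was 0.96 (SE 0.12, limma adjusted p = 2.18e-08), so the difference in ratio does not stand for a fall of Glra2. The turn of the alpha subunits thus fell in a later sampled interval than that of the cotransporters.

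Glrb, whose beta subunit carries the binding site for gephyrin, rose mainly between P1 and P6. Its position is chr3:80843599-80913660 on the minus strand. Levels were 4.40, 5.59 and 4.53 cpm at E14, 6.65, 5.82 and 4.97 cpm at E17 and 9.81, 5.67, 9.16 and 11.6 cpm at P1. They were 27.1, 26.4 and 29.5 cpm at P6, 41.0, 36.6, 38.1 and 31.8 cpm at P15 and 40.8, 36.4, 36.8 and 29.8 cpm at P28, with a lowest, median and highest of 22.1, 30.2 and 39.7 cpm at P60. P6 did not overlap with P1, nor P15 with P6. The log2 fold change was 1.55 (SE 0.17, limma adjusted p = 8.69e-09) from P1 to P6. The next step was 0.40 (adjusted p = 0.0782), and it passed with median-of-ratios scaling (adjusted p = 0.036) and in edgeR on recovered reads (adjusted p = 0.025). The change of 0.53 from E17 to P1 (adjusted p = 0.0486) was lost on leaving out any 1 of 6 of the 7 libraries, with P1 replicate 2 as the exception. The mature mean of 34.0 cpm was 6.38-fold the embryonic mean of 5.33 cpm. Per kb of exon, the summed alpha level was 4.05 to 4.16 times that of Glrb on average at E14, E17 and P1. It was 1.97 times at P6 and 3.20 times at P60, where libraries ranged from 2.35 to 4.49. The exons of Glrb cover 4655 bases and its longest coding transcript 3029 bases, so the size of these ratios depends on the length used. They do not give the make-up of the receptor.

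Gphn encodes gephyrin, which anchors glycine and GABA-A receptors and also takes part in molybdenum cofactor synthesis in all cells. It lies at chr12:78226379-78684772 on the plus strand and shares 147 exon bases with the opposite strand gene Gm48226. Its levels were 39.9, 39.8 and 43.8 cpm at E14, 51.0, 54.6 and 55.0 cpm at E17 and 69.9, 61.8, 69.2 and 65.5 cpm at P1. They were 108, 98.3 and 101 cpm at P6, 108, 107, 110 and 93.6 cpm at P15 and 104, 102, 90.9 and 95.03 cpm at P28, with a lowest, median and highest of 65.4, 82.0 and 106 cpm at P60. The first 4 ages did not overlap with each other. The step from P1 to P6 was 0.61 (SE 0.12, limma adjusted p = 5.72e-05). That from E14 to E17 was 0.37 (adjusted p = 0.0479) and was lost on leaving out any 1 of the 6 libraries (adjusted p of 0.062 to 0.16). From P6 to P60 the log2 fold change was -0.31 (adjusted p = 0.0177), but -0.15 (adjusted p = 0.21) with median-of-ratios scaling. The P60 libraries split here too, with replicates 1 and 2 at 101 and 106 cpm and the other 4 at 65.4 to 82.9 cpm. The second entry of Gphn had 4.90 to 11.9 cpm.

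Across the 8 genes, mature against embryonic retina gave 7 genes that were higher and none that was lower, with Slc12a2 short of the threshold. Among all features tested, 35.0% were higher and 40.4% lower at an adjusted p under 0.05. The median log2 fold change was 1.74 over the 8 genes and -0.06 over all features. Libraries of the 2 periods did not overlap for Glra1, Glra3, Glrb, Gphn and Slc12a5. The share of all features without such overlap was not determined, so this only describes these genes. With a minimum log2 fold change of 1 added, 4 genes remained (Glra1, Glra3, Glrb and Slc12a5). The share of all features was not determined with that minimum, and the shares above do not apply to it. All 8 genes differed between ages in the limma F test (adjusted p from 8.33e-28 for Slc12a5 to 0.000419 for Glra4), where 83.0% of all features did.

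Most changes fell between E14 and P15. From E14 to E17, 3 genes rose (Glra2, Gphn and Slc12a5) and none fell, with 7.56% of all features higher and 3.02% lower. From E17 to P1, 4 rose (Glra1, Glra2, Glrb and Slc12a5) and none fell, against 5.77% and 3.43%. With median-of-ratios scaling only Glra2 passed at that step. From P1 to P6, 5 rose (Glra1, Glra3, Glrb, Gphn and Slc12a5) and none fell, against 18.0% and 20.4%, and the median log2 fold change was 0.92 over the 8 genes and -0.03 over all features. From P6 to P15, 4 rose (Glra1, Glra3, Glra4 and Slc12a5) and none fell, against 14.4% and 19.0%. Which of the last 2 steps had more calls depended on the fit. With median-of-ratios scaling and in edgeR each had 5, with Glrb added from P6 to P15, and in fits of the compared ages only it was 5 against 6, where Glrb also rose and Glra2 fell (-0.39, adjusted p = 0.031).

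After P15 the levels moved less. From P15 to P28 Slc12a2 fell and none rose, against 1.58% of features lower and 1.14% higher. From P28 to P60 none of the 8 passed in limma, where 4 had an unadjusted p under 0.05 (Glra2, Glra3, Gphn and Slc12a5), while edgeR on recovered reads passed Slc12a5 (adjusted p = 0.041). Of all features, 4.80% were higher and 8.11% lower at that step by adjusted p in limma. The share of all features at an unadjusted p under 0.05 was not determined. Without P60 replicate 1, 3 genes passed (Glra2, Gphn and Slc12a5), without replicate 2 it was Gphn and Slc12a5, and without P28 replicate 4 it was Glra2. Over all features, P60 replicates 1, 2 and 6 correlated more closely with P28 libraries (mean r of 0.985, 0.981 and 0.975) than with the other P60 libraries (0.965, 0.962 and 0.973), and replicates 3, 4 and 5 did the reverse. The part of that split in the P60 values was not tested. From P6 to P60, the added contrast, 4 genes were higher (Glra1, Glra3, Glra4 and Slc12a5) and 3 lower (Glra2, Gphn and Slc12a2), against 18.6% and 30.8% of all features. The median of all features was -0.14 in that contrast and -0.02 with median-of-ratios scaling.

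**Figure D4:**
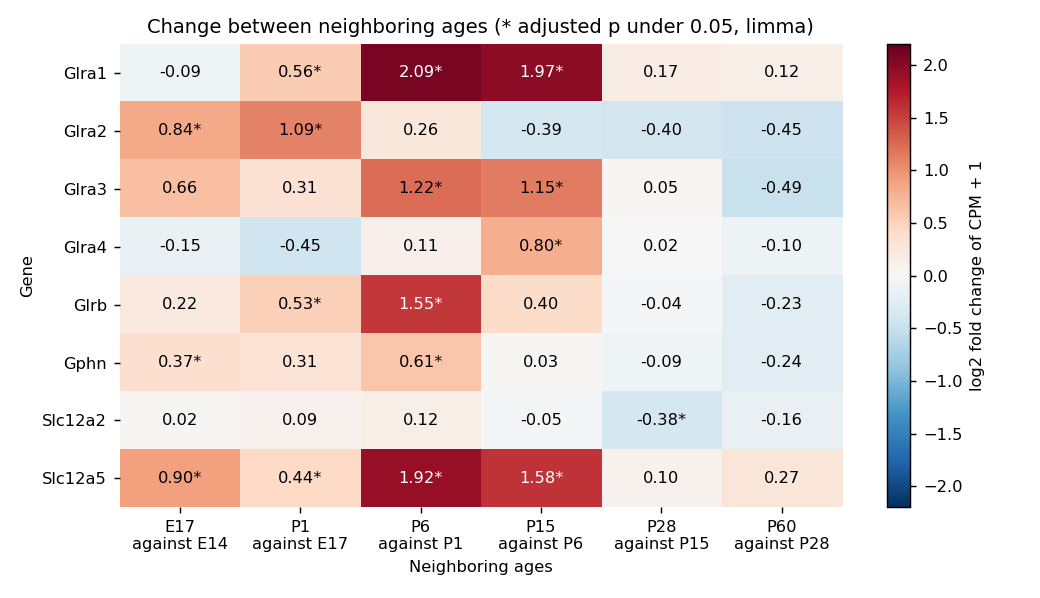
Log2 fold change of cpm + 1 of each gene between neighboring ages, as color and printed value, with an asterisk where the limma adjusted p was under 0.05. The strongest rises stand between P1 and P15, up to 2.09 for Glra1, and Slc12a2 from P15 to P28 (-0.38) holds the only asterisk after P15.

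Related genes were counted in 6 lists. Of 40 tested genes, 14 were higher and 16 lower in mature than in embryonic retina, which is near the 35.0% and 40.4% of all features, and the median log2 fold change was -0.03 over the 40 genes and -0.06 over all features. The counts are thus not a result about these lists, and single genes are given by their values.

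Of 9 genes of glycine supply, 3 were higher and 4 lower in mature retina (median log2 fold change -0.13), also near the shares of all features. The 3 that were higher move glycine across membranes. Slc6a9, the glycine uptake carrier GLYT1 of amacrine cells in the retina, had 8.07 ± 0.91 cpm at E14 (SD, n = 3) and 160 ± 26 cpm by P60 (SD, n = 6). The change was the largest of the 9 on the log2 scale (log2 fold change mature against embryonic 3.62, SE 0.08, limma adjusted p = 1.93e-27). Slc6a5, the neuronal carrier GLYT2, changed by 2.96 (SE 0.11, adjusted p = 1.11e-21), and Slc32a1, which loads glycine and GABA into vesicles, by 2.83 (SE 0.10, adjusted p = 5.01e-22). The 4 that were lower make or break down glycine. Shmt1 (-2.96) and Shmt2 (-2.31) interconvert serine and glycine, and Gldc (-2.78) and Gcsh (-0.91) belong to the glycine cleavage system, all with adjusted p of at most 2.62e-07. The cleavage genes Amt (-0.13, adjusted p = 0.254) and Dld (0.06, adjusted p = 0.43) did not pass. Shmt1 fell by 2.25 on the log2 scale from P1 to P6 (adjusted p = 3.35e-11), and Gldc by 2.19 from P6 to P15 (adjusted p = 4.9e-13). Progenitor markers fell over both intervals, from 4306 to 4690 cpm at P1 to 132 to 178 cpm at P6 and 15.4 to 19.0 cpm at P15. Amacrine markers, 4 genes of GABA and amacrine cells, summed to 136 to 158 cpm at E14, 554 to 627 cpm at E17, 816 to 942 cpm at P1 and 339 to 398 cpm at P60, so that their sum at P60 lay above E14 and below E17. Their part and that of the progenitors in these values was not tested.

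The list of scaffold genes of inhibitory synapses also held the cofactor synthesis genes Mocs1, Mocs2 and Mocs3. Of its 8 tested genes (9 listed), 3 were higher and 2 lower in mature retina, against 35.0% and 40.4% of all features (median log2 fold change 0.13). Lhfpl4, a partner of GABA-A receptors, was higher by 0.83 on the log2 scale (limma adjusted p = 6.42e-10). Mocs1 (0.38, adjusted p = 0.00644) and Mocs2 (0.55, adjusted p = 2.52e-07), which act before gephyrin in cofactor synthesis, were higher as well. The gephyrin binding dynein light chain gene Dynll1 (-1.05, adjusted p = 5.46e-14) and Gabarap (-1.46, adjusted p = 1.81e-16) were lower, and Nlgn2, the adhesion protein of inhibitory synapses, did not pass (-0.10, adjusted p = 0.108).

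Among 6 other genes of the SLC12 family, 2 were higher and 1 lower in mature retina, against the same 35.0% and 40.4% (median log2 fold change 0.20). Slc12a7, encoding the exporter KCC4, had 56.7 ± 1.8 cpm at E14 (SD, n = 3) but 11.5 ± 3.5 cpm at P60 (SD, n = 6), a log2 fold change mature against embryonic of -2.04 (SE 0.11, limma adjusted p = 5.22e-17). Slc12a4, encoding KCC1, did not pass (-0.12, adjusted p = 0.40). Slc12a9 was higher by 0.91 (adjusted p = 4.18e-09), and Slc12a1, encoding NKCC2, by 0.89 (adjusted p = 3.64e-05) at 1.81 ± 0.40 cpm (SD, n = 4) at P28, its highest age. Within the KCC group, Slc12a7 thus changed in the direction opposite to Slc12a5.

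The WNK and SPAK kinase pathway controls the phosphorylation of NKCC1 and KCC2, which activates the first and inhibits the second. Of 8 genes of this pathway, not all of them kinase genes, 2 were higher and 5 lower in mature retina. The shares over all features were 35.0% and 40.4% (median log2 fold change of the 8 genes -0.30). Wnk3 (-1.01, limma adjusted p = 5.96e-15), Wnk2 (-0.61, adjusted p = 9.85e-09), Wnk1 (-0.13, adjusted p = 0.000676), Oxsr1 (-0.47, adjusted p = 1.24e-10) and Cab39 (-0.54, adjusted p = 3.45e-07) were lower. The change of Wnk1 was small, and the median over all features was -0.06. Its means were 699 cpm at E14, 640 cpm at E17, 561 cpm at P15 and 668 cpm at P60, so P60 lay above E17. Wnk4 (1.04, adjusted p = 3.76e-09) and Stk39, the SPAK gene (0.52, adjusted p = 3.79e-09), were higher. Stk39 had 53.1 ± 5.4 cpm at E14 (SD, n = 3), 27.5 ± 2.7 cpm at P1 (SD, n = 4) and 55.7 ± 4.7 cpm at P6 (SD, n = 3), with a rise from P1 to P6 of 0.99 on the log2 scale (SE 0.09, adjusted p = 2.41e-10).

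Of 4 other chloride and bicarbonate carriers of neurons, 3 were higher and 1 lower, set beside 35.0% and 40.4% of all features (median log2 fold change 1.75). Slc4a10, a sodium and bicarbonate carrier of neurons, had 0.866 ± 0.26 cpm at E14 (SD, n = 3) but 61.2 ± 6.0 cpm at P6 (SD, n = 3) and 109 ± 13 cpm at P60 (SD, n = 6), a log2 fold change mature against embryonic of 5.29 (SE 0.08, limma adjusted p = 4.74e-32). Slc4a3, encoding the anion exchanger AE3, changed by 1.84 (adjusted p = 2.8e-15) and Slc4a8 by 1.65 (adjusted p = 3.3e-23). Clcn2, a chloride channel gene, changed by -0.32 (adjusted p = 0.0122). Its mean was 23.6 cpm at E14, 16.1 cpm at P15 and 16.8 cpm at P28. At P60 it was 23.9 ± 7.2 cpm (SD, n = 6), near the E14 mean. Of 5 tested partners and regulators of KCC2 (6 listed), 1 was higher and 3 lower (median -0.63). Rest, whose product represses neuronal genes through the RE1 element, had 107 ± 5.3 cpm at E14 (SD, n = 3) but 42.0 ± 1.9 cpm at P6 (SD, n = 3) and 34.4 ± 2.6 cpm at P60 (SD, n = 6), a change of -1.498 (SE 0.06, adjusted p = 1.38e-20). Neto2, which binds KCC2, changed by -1.15 (adjusted p = 1.91e-12) and Ckb, encoding brain creatine kinase, by -0.63 (adjusted p = 1.37e-06). Ntrk2, the BDNF receptor gene, was higher by 0.78 (adjusted p = 3.72e-14), and Bdnf did not pass (-0.16, adjusted p = 0.37).

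**Figure D5:**
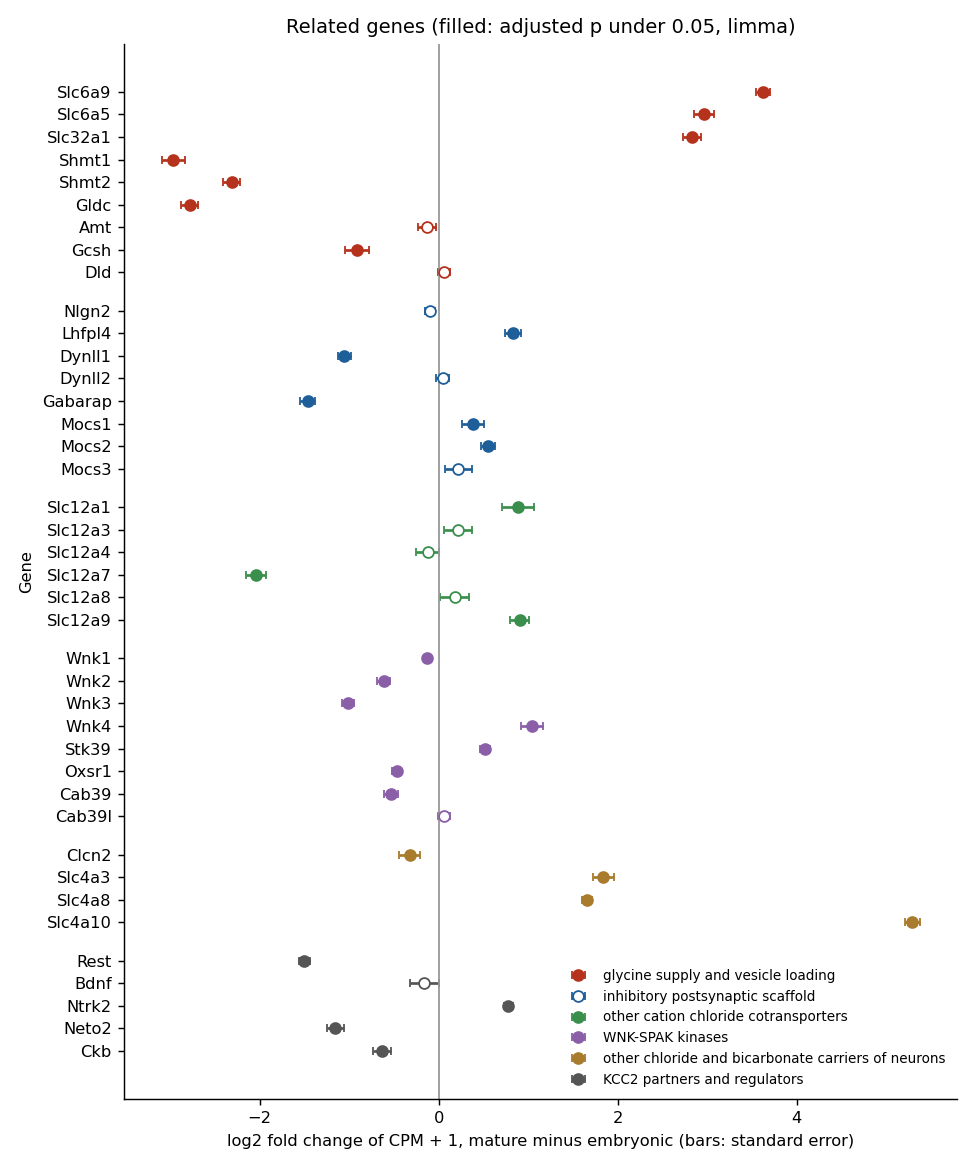
Log2 fold change of cpm + 1, mature minus embryonic, of the 40 related genes tested, grouped by list, with bars for the standard error. Filled points passed a limma adjusted p under 0.05. Of the 40, 14 lie above 0 and 16 below with filled points, from 5.29 for Slc4a10 to -2.96 for Shmt1. These counts are near the 35.0% higher and 40.4% lower of all features.

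The genes with the most similar time course were ranked by Pearson's r of mean log2(cpm + 1) over 7 ages, among 13578 features with a Gene ID and a mean of at least 5 cpm. For Slc12a5 these were Phka1 (r = 0.9989), Ttc25, Ddrgk1, Dnm1 (r = 0.9984) and 6430548M08Rik, and 231 features had an r over 0.99. For Glra1 they were Zfp385a (r = 0.9995), Gm11532, Pdxk, Rtbdn and Krt18, with 202 over 0.99. For Glra2 they were Arih2os (r = 0.9895), Fam168a, C1galt1c1, Esyt2 and A430106G13Rik, and for Slc12a2 they were 4931406C07Rik (r = 0.974), Kcnq1ot1, Duxbl1, Xkr4 and Kif5b, with none over 0.99 in either case. The 7 points share libraries and ages, so the r values are a description.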

How the data were processed

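RNA-seq libraries (27) were made by the authors from total RNA of whole retinas with a SMARTer total RNA kit, sequenced as single-end reads of 50 bases on a HiSeq instrument, and aligned to GRCm38/mm10 with STAR, per the labels and methods. The annotation and strand setting of the counting are not given in the sources used here. The deposited values are cpm, scaled by the authors to each library's total (columns sum to 999814 to 999882). Low values were whole multiples of 1 read, and 100.0% of values came out whole within 0.1, so that reads and totals could be recovered.

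Values were analyzed as log2(cpm + 1), which understates the change of low genes. After a filter (1 cpm or more in 3 libraries or more), limma 3.58.1 with a mean-variance trend (R 4.3.3) modeled age in the 27 libraries together. Tests were two-sided, adjusted p-values (Benjamini-Hochberg) covered the 31760 features left, and the threshold was 0.05. The fits were first tested on simulated data. The 2 ratios were tested by exact permutation over libraries. Alternatives were a pseudocount of 0.1, other filters, median-of-ratios scaling, edgeR 4.0.16 on recovered reads, a replicate block, fits of the compared ages only, a minimum fold, and leaving out each library of the compared ages. Positions and lengths came from GENCODE M21, and promoter windows from RefSeq. The members, the lists of related genes and the tests were chosen with earlier results of these data known. Named genes were the 8 members, genes of the lists, and the 5 features nearest in time course to Slc12a5, Slc12a2, Glra1 and Glra2. After the data had been seen, the contrast of P60 with P6 was added, as was an edgeR fit that left out E14 replicate 1. A few genes of the lists are not reported here. Of the 42 related genes kept, Insyn1 was not found by its symbol and Egr4 did not pass the filter. The labels do not state that replicates are separate cultures or litters, so p-values measure the spread between these pools or mice.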

Additional observations from a re-analysis of the deposited data

Results flagged for a closer look

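Among 32 groups of 4 to 6 libraries tested for a sample far from the others (8 genes at the 4 ages with at least 4 libraries), 2 had one, and chance gives about 1 in 20 groups. Both concerned Glra1. At P1, replicate 2 had 1.13 cpm and the other 3 libraries 0.452 to 0.491 cpm. At P15, replicate 4 had 32.6 cpm and the other 3 libraries 23.2 to 24.6 cpm.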

How the results depend on the processing

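Over the 64 changes of single genes, 683 of 760 alternative values (for omitted libraries, the lowest and the highest) kept direction and side of the threshold, 48 dropped below it, 15 passed it and 14 changed sign, none of the latter in a call. Both ratios kept their direction and side under every alternative that was run. Counts of genes called moved as follows, and the cause was not tested unless stated. A minimum log2 fold change of 1, stricter by construction, took mature against embryonic from 7 to 4, E17 against E14 from 3 to 0, P1 against E17 from 4 to 1, P28 against P15 from 1 to 0 and P60 against P6 from 7 to 3. Median-of-ratios scaling gave 1 for P1 against E17. A filter of a mean of at least 10 cpm, with 6 of the genes left, gave 2 in place of 4 for P15 against P6 and 1 in place of 0 for P60 against P28. Fits of the compared ages only gave 4 for P60 against P6. EdgeR gave 1 for P60 against P28, with or without E14 replicate 1, and without that library 1 for E17 against E14 and 2 for P1 against E17. Leaving out 1 library of the compared ages gave 6 to 8 for mature against embryonic, 1 to 2 for E17 against E14 (1 without E17 replicate 3), 1 to 3 for P1 against E17 (1 without any 1 of the E17 libraries, 2 without P1 replicate 2 or 3), 5 for P6 against P1, 3 to 4 for P15 against P6, 0 to 1 for P28 against P15 (0 without P15 replicate 1 or 3 or P28 replicate 4), 0 to 3 for P60 against P28 (3 without P60 replicate 1, 2 without P60 replicate 2, 1 without P28 replicate 4) and 4 to 7 for P60 against P6 (4 without P6 replicate 1). EdgeR moved the median of all features in mature against embryonic from -0.06 to 0.04.

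Same-numbered libraries did not deviate together (63 pairs, r from -0.118 to 0.167, 2 over 0.1), so the numbers do not pair them. With the replicate number as a block, 7 genes were called in mature against embryonic, 4 in P1 against E17 (with Gphn in place of Glra1) and 6 in P60 against P6 (without Gphn).

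Values near 0 that changed sign, none passing in either setting, were those of Slc12a2 from E14 to E17 (0.02, with -0.02783 under median-of-ratios scaling, -0.002594 in edgeR, -0.04664 in edgeR without E14 replicate 1 and -0.01563 to 0.06184 on leaving out 1 library) and from P6 to P15 (-0.05, with 0.02167, 0.02399 and 0.02398 under these 3 settings and -0.08274 to 0.02672). On leaving out 1 library, Glra4 ranged from -0.1974 to 0.3745 from P1 to P6, from -0.1028 to 0.09714 from P15 to P28 and from -0.1644 to 0.01127 from P28 to P60, Glra3 from -0.1889 to 0.1836 and Glrb from -0.1059 to 0.04636 from P15 to P28, and Gphn from -0.001626 to 0.07955 from P6 to P15. Genes under 1 cpm, such as Glra1 and Glra3 before birth, rest on at most 10 reads a library, and the depth sets how firmly their early steps can be read.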
